A study of Mus musculus with 6 samples.

Results

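Krüppel-like factors (KLFs) are zinc-finger transcription factors, and the open chromatin around the genes of 9 of them, Klf2, Klf3, Klf4, Klf5, Klf6, Klf9, Klf10, Klf13 and Klf15, was followed in the mouse proximal tubule after removal of 1 kidney. A region was counted with a gene when its summit lay in the gene body or within 50 kb of either end (GENCODE release M21 on GRCm38), which gave 113 of the 99359 regions found over all lists. Of these, 16 were promoter regions, with the summit within 1 kb of an annotated start of the gene, 92 were distal, and 5 lay within 1 kb of the start of another gene and were kept apart. The libraries came from wild-type male C57BL/6 mice, operated on at 7 weeks of age and studied 24 h later. In 3 libraries the mice had a sham operation (Sham), and in the other 3 one kidney had been excised, which is unilateral nephrectomy (UNx). Each library was made by ATAC-seq, in which the Tn5 transposase inserts adapters into accessible DNA, from 3 hand-dissected stretches of S1, where the proximal tubule begins. The labels do not say whether libraries came from different mice, so the p-values below measure only the spread between these libraries.

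KLFs carry 3 zinc fingers at the carboxyl end of the protein and bind GC-rich and CACCC-type DNA, the same kind of sequence that the related SP factors bind. What follows the binding depends on the rest of the protein: Klf3 recruits the corepressor CtBP, Klf9, Klf10 and Klf13 bind the corepressor Sin3A, and Klf2, Klf4, Klf5, Klf6 and Klf15 can activate transcription. Klf9 and Klf15 are known targets of the glucocorticoid receptor, Klf10 is known as a gene induced early by TGF-beta, and Klf2 and Klf4 are known for their response to blood flow in endothelial cells. Klf15 is known in muscle, liver and kidney as a regulator of amino acid and glucose metabolism, and Klf6 as a gene induced early after injury.

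The lists held between 77355 (Sham 2) and 100999 (UNx 2) peaks, and because they hold no read counts the depth behind a value is unknown. Levels are therefore percentile ranks: the 77355 strongest peaks of each list by the authors' −log10 q were ranked on a scale whose top is 100, and a region with no peak among them was set to 0. The lists differed in strength before ranking, with a median −log10 q of 12.1 in Sham 2 and 26.5 in UNx 3 at the extremes. Promoter regions of 8 of 8 S1 marker genes were present in all 6 lists, and those of the 3 immune markers in none. By mean, 5 of the S1 markers were higher and 3 lower in UNx. Of the latter, 2 had UNx ranks wholly below the Sham ranks. They were Lrp2 (96.2 ± 0.627 to 92.8 ± 1.53, limma adjusted p = 0.260) and Cubn (90.8 ± 3.64 to 84.2 ± 4.46, limma adjusted p = 0.214). Markers of other cells were partly present: Umod, Slc12a1 and Calb1 of the loop and distal tubule, Slc22a7 of the S3 segment, Col1a1 of stroma and Wt1 of podocytes had a promoter region in all 6 lists, while Slc12a3, Aqp2, Pdgfrb and Acta2 had none. The summed percentile rank over 6 endothelial marker promoters was 23.5, 51.5 and 25.2 in the Sham libraries and 4.39, 0 and 0 in the UNx libraries, with Pecam1, Kdr, Flt1, Tek and Emcn at 0 in every UNx list. Among the other markers the UNx ranks were also wholly below the Sham ranks at Slc12a1 (56.9 ± 4.01 to 30.2 ± 9.70, limma adjusted p = 0.131), Slc22a7 (66.6 ± 6.67 to 50.1 ± 8.89, limma adjusted p = 0.226) and Col1a1 (69.2 ± 0.248 to 61.0 ± 6.22, limma adjusted p = 0.485), and wholly above at Wt1 (39.8 ± 0.755 to 57.2 ± 8.18, limma adjusted p = 0.262). Lists of one cell type did not move together. Beside Slc12a1, the loop and distal markers Umod (65.4 ± 0.624 to 69.4 ± 4.65) and Calb1 (65.1 ± 9.32 to 66.0 ± 4.29) had higher UNx means. Of the 3 podocyte markers, 2 were higher and 1 lower. The part of these other cells in the results below was not tested.

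The sequences at the regions on which the results turn are given first, in GRCm38 and on the plus strand of the chromosome, as the 201 bases around the strongest summit. The Klf13 intron region had the smallest p of the 90 that were tested, the Klf6 pair had higher UNx ranks, the 2 Klf10 regions are close neighbours that differ in opposite directions, and the Klf15 region lies in an intron of the neighbouring gene Aldh1l1. Capitals mark matches on either strand to GGGCGG, which is a GC box, to TGANTCA, to the CCAAT box or to the glucocorticoid-receptor-type palindrome. TGANTCA takes any base at N and is therefore broader than the AP-1 site.
Klf13 intron, chr7:63917888-63918088: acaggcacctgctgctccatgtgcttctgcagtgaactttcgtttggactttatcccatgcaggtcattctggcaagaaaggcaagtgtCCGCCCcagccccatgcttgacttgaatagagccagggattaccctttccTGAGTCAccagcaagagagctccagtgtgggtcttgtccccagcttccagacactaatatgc
Klf6 upstream, chr13:5841512-5841712: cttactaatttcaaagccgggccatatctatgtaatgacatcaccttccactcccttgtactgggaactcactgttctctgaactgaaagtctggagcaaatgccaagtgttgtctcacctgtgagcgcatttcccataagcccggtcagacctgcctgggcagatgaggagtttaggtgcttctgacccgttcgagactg
Klf6 intron, chr13:5863634-5863834: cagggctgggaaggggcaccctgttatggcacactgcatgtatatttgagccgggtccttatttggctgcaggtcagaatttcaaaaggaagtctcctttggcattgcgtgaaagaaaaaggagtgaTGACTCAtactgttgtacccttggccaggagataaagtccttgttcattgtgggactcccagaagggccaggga
Klf10 downstream, the region with higher UNx ranks, chr15:38268777-38268977: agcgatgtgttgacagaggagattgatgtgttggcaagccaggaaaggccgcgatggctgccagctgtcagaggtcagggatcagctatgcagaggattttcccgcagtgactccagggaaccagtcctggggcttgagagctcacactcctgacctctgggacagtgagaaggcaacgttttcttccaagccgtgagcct
Klf10 downstream, the region with lower UNx ranks, chr15:38269275-38269475: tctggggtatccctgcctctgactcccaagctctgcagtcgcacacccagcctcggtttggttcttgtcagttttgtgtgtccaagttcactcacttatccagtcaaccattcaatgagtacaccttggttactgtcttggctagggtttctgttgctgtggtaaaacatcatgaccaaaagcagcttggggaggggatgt
Klf15 downstream, chr6:90509127-90509327: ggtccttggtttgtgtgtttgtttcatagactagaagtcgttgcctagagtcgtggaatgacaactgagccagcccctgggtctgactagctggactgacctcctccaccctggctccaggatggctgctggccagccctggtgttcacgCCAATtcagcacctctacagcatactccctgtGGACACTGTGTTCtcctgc

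The pattern TGANTCA, broader than the AP-1 site, occurred in 9 of the 92 distal KLF regions, against 8.16% of all regions over 1 kb from a start. The GC box occurred in 10 of the 16 KLF promoter regions, against 50.2% of all regions within 1 kb of a start. The glucocorticoid-receptor-type palindrome was found in 1 of the 92 distal regions, the Klf15 region printed above, against 0.6% of all regions over 1 kb from a start. A match is a run of letters and says nothing of what is bound there.

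The 120 bases that precede the start are given for the 5 genes whose promoters or neighbouring regions are described in most detail, on the strand of the gene and from RefSeq (GRCm38.p6), with capitals as above and also for the E-box, CACGTG, again on either strand.
Klf4, chr4:55532476-55532595, minus strand: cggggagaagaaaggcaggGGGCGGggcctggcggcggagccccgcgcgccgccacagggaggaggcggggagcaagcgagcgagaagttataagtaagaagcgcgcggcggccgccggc
Klf6, chr13:5861362-5861481, plus strand: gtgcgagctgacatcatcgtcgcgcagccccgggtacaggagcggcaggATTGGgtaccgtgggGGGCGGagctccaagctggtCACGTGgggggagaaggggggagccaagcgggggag
Klf9, chr19:23141106-23141225, plus strand: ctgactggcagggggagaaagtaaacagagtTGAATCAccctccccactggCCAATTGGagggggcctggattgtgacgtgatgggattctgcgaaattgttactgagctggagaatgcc
Klf13, chr7:63938916-63939035, minus strand: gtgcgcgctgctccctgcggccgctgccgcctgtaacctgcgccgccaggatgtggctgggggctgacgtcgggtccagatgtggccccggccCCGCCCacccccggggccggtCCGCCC
Klf15, chr6:90462456-90462575, plus strand: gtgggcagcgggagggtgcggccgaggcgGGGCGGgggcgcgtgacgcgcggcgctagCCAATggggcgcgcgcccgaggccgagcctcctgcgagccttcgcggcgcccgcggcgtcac

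RefSeq promoters were matched for 7 of the 9 genes. In the 250 bases before the start, GGGCGG occurred in 6 of the 7, with 6 copies at Klf3, 4 at Klf4, 3 at Klf13, 2 at Klf2, 1 each at Klf6 and Klf15 and 0 at Klf9, and it occurred in 32.7% of 32851 mouse promoters. Klf9 instead held 3 matches to CCAAT and 1 to TGANTCA there, and its 250 bases had the lowest GC content of the 7, 59.6%, against 78.4% at Klf3. CCAAT was present in 33.8% and TGANTCA in 6.75% of the 32851 promoters.

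All 9 genes had a promoter region in all 6 lists, but their levels spanned a wide range. Klf5, a factor of dividing epithelia, ranked highest, with a mean over the 6 lists at the 99.0 percentile of all peaks and above 95.8% of 13795 protein-coding promoters. Klf6 and Klf3 followed, above 90.6% and 89.3% of promoters, and then Klf13 (67.9%), Klf2 (66.1%), Klf10 (64.6%), Klf4 (46.5%), Klf9 (33.3%) and Klf15 (27.5%). The tubule's metabolic factor Klf15 thus had the lowest promoter rank of the 9 and, as shown further on, the densest surroundings. By the deposited fold enrichment the lowest promoter was not as clear, with 6.89, 4.51 and 6.05 in Sham and 4.82, 4.10 and 5.10 in UNx at Klf15 and 4.60, 4.62 and 4.59 in Sham and 4.51, 4.25 and 3.49 in UNx at Klf9.

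None of the 9 promoter regions passed the test between operations (limma on percentile ranks, Benjamini-Hochberg adjustment over all 74781 regions present in at least 3 lists, threshold 0.05). Over all tested regions 589 passed, 0.788%. The UNx mean was higher at 4 KLF promoters and lower at 5, but with ranking by fold enrichment the 4 (Klf2, Klf5, Klf6 and Klf10) were lower as well, with differences of −2.32, −0.626, −6.27 and −4.69 percentile points. With that ranking the differences of Klf3, Klf4, Klf9, Klf13 and Klf15 were −11.5, −14.7, −11.4, −17.4 and −18.0. How many of all promoters were lower in UNx by fold enrichment was not tested. By −log10 q, 6985 of 13203 tested protein-coding promoters were lower. On that ranking 2 of the 9 KLF promoters had an unadjusted p under 0.05, Klf4 and Klf13, both lower in UNx. Among all tested regions 18.6% had an unadjusted p under 0.05, and among the 13203 promoters 1740 had.

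**Figure D1:**
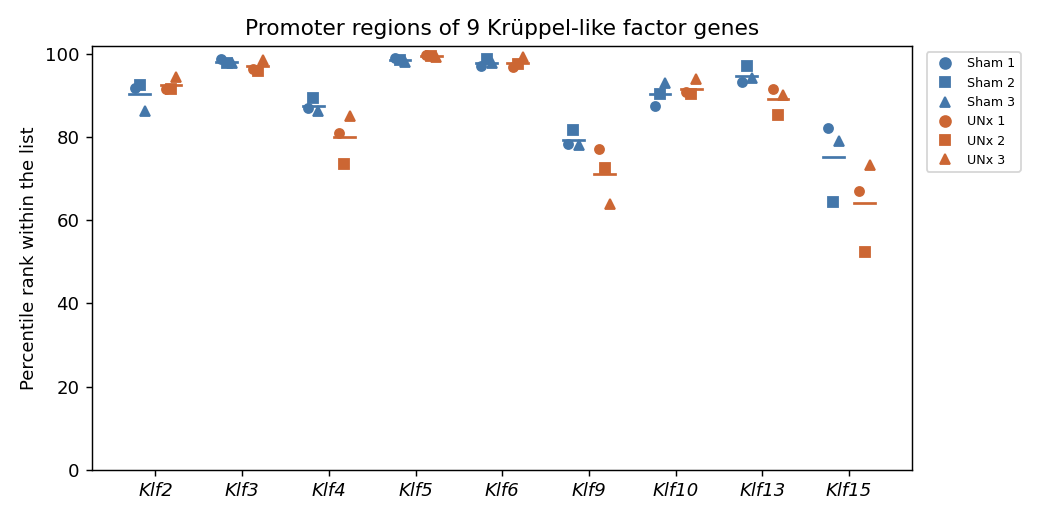
Percentile rank of the promoter region of each gene (vertical axis, 0 to 100) in the 3 Sham and 3 UNx libraries, with 1 point per library and a bar at each group's mean. The Klf5 points sit above 98 in every library, and the UNx points of Klf4, Klf9 and Klf13 all lie below the Sham points.

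Klf4, known as a barrier and differentiation factor of epithelia, had promoter ranks of 86.9, 89.5 and 86.3 in Sham 1, 2 and 3 and of 81.0, 73.7 and 85.2 in UNx 1, 2 and 3. The UNx values were all below the Sham values, with UNx 2 the lowest. The mean went from 87.6 ± 1.67 to 80.0 ± 5.82 (SD, n = 3 each), a difference of −7.60 percentile points (SE 3.34, limma adjusted p = 0.230), and without UNx 2 it was −4.46. Klf4 is also expressed in endothelium, whose marker promoters had low ranks with a lower sum in UNx (above), and the part of such cells in the Klf4 value was not tested. Fewer cells with an open region and less opening per cell cannot be told apart in these bulk libraries.

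Klf13, a factor of the Sin3A-binding group, had promoter ranks of 93.3, 97.1 and 94.3 in Sham and of 91.7, 85.5 and 90.3 in UNx. Again no UNx value reached the lowest Sham value. The difference was −5.71 percentile points (94.9 ± 1.98 against 89.2 ± 3.27, limma adjusted p = 0.154), and −3.87 without UNx 2.

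Klf9, a factor of the same group that glucocorticoid induces, had ranks of 78.3, 81.7 and 78.1 in Sham and of 77.1, 72.7 and 64.0 in UNx. The groups did not overlap, but UNx 1 lay within about 1 point of the lowest Sham library. The difference of −8.09 percentile points (79.4 ± 2.01 against 71.3 ± 6.69, limma adjusted p = 0.367) became −4.45 without UNx 3.

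Klf15 had ranks of 82.2, 64.5 and 79.2 in Sham and of 67.0, 52.5 and 73.4 in UNx, so the groups overlapped through the low Sham 2 value. Its difference was the largest in size of the 9, −11.0 percentile points, and so was its spread (75.3 ± 9.48 against 64.3 ± 10.7, limma adjusted p = 0.366). Without UNx 2 it was −5.09. A separate Klf15 region 1.10 kb into the gene, near another of its 4 annotated starts, had ranks of 55.1, 77.1 and 69.3 in Sham and of 71.0, 61.7 and 84.1 in UNx (limma adjusted p = 0.725). Its difference of 5.10 turned to −0.948 without Sham 1 and to −0.833 without UNx 3.

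The other promoters differed by less on this ranking. Klf5 had ranks of 99.0, 98.5 and 98.1 in Sham and of 99.7, 99.5 and 99.3 in UNx, 0.985 percentile points higher with no overlap (limma adjusted p = 0.698), though lower when ranked by fold enrichment. Klf2 had 91.9, 92.6 and 86.4 against 91.7, 91.6 and 94.5, a difference of 2.26 (limma adjusted p = 0.606) that was 0.316 without Sham 3. Both groups overlapped at Klf2 because Sham 1 and Sham 2 stood at the UNx level. Klf3 had 98.9, 97.9 and 97.9 against 96.5, 96.1 and 98.7, a difference of −1.15 (limma adjusted p = 0.689) that became −11.5 when ranked by fold enrichment.

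Klf6 had promoter ranks of 97.2, 98.8 and 97.8 in Sham and of 96.9, 97.6 and 99.4 in UNx, a difference of 0.0560 percentile points (limma adjusted p = 0.989). Klf10 had 2 promoter regions of similar level: the stronger, near its second start 1.29 kb into the gene, had 87.6, 90.4 and 93.0 against 90.9, 90.3 and 94.0 (difference 1.39, limma adjusted p = 0.774). Its region at the first start had 92.8, 90.8 and 85.5 against 87.4, 88.9 and 83.5 (difference −3.12, limma adjusted p = 0.550). At these genes the libraries of both operations were interleaved.

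The genes also differed in how many open regions surrounded them. Klf15 had 16.0 regions per 100 kb, Klf13 14.4, Klf9 14.2, Klf10 12.8, Klf6 10.1, Klf4 8.55, Klf3 8.49, Klf2 7.80 and Klf5 1.72, against a median of 6.35 over 21938 protein-coding genes. Klf5 therefore combined the strongest promoter with the emptiest surroundings, 1 distal region at −38.9 kb from the start that was present in Sham 3 (rank 1.23) and UNx 1 (rank 32.5) alone. Klf15 was the opposite, with 14 distal regions of median rank 76.5.

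**Figure D2:**
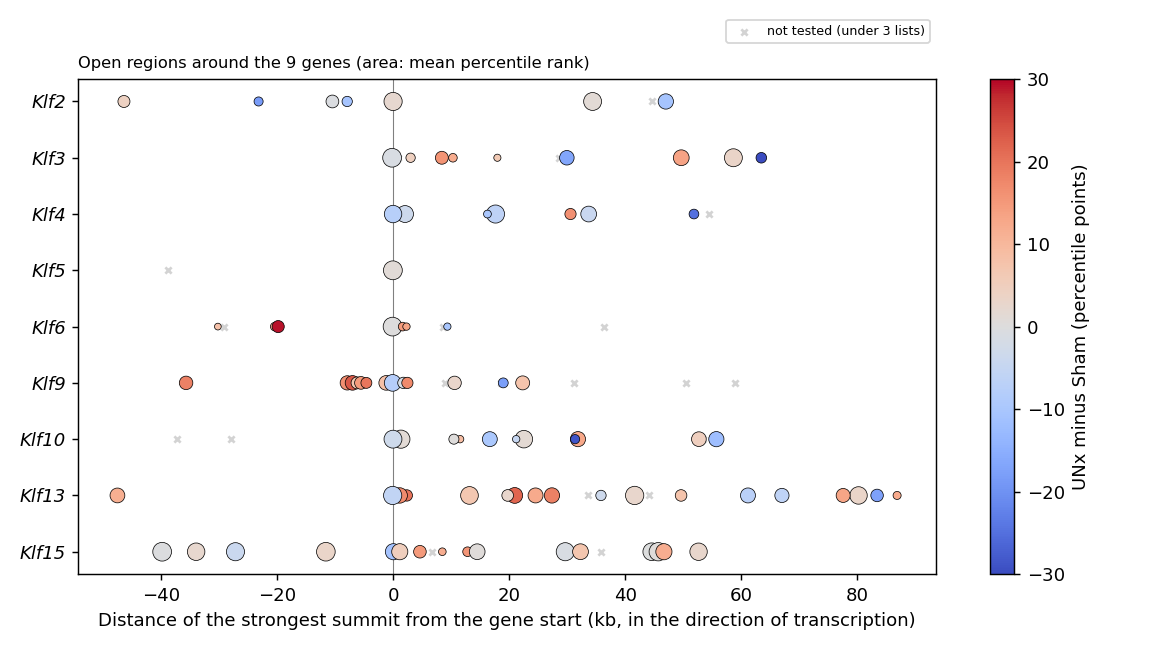
Regions around each gene by distance of the summit from the gene start in kb (horizontal axis, in the direction of transcription), with the point area showing the mean percentile rank and the colour the UNx minus Sham difference in percentile points. The Klf15 row is filled with large points, the Klf5 row has 2 points, and the Klf13 intron holds several regions with higher UNx ranks.

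Over the 9 loci together, 68 of 113 regions (60.2%) were present in all 6 lists, against 53.4% of all regions, and 90 were tested. None passed the threshold, and the lowest adjusted p was 0.0658. By limma without variance trend or robust estimation the count was 0 as well, with 20 regions at an unadjusted p under 0.05 against 16 of 90 (17.8%) with them. Of the 16, 9 were higher and 7 lower in UNx. The UNx values lay wholly above the Sham values in 22 regions (24.4%) and wholly below in 10 (11.1%), where all tested regions gave 12.0% and 11.7%. The 22 include 2 Klf6 regions found in all 3 UNx lists and no Sham list. These reached the filter of 3 lists through UNx alone, so they could only lie above. Regions of 1 operation only are also among all tested regions. The median difference over the 90 was 2.76 percentile points, and −0.0112 over all tested regions. The regions are not independent, since many share a gene and all share the same 6 libraries.

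More of the 113 regions were present in UNx lists: 86, 81 and 88 in Sham and 87, 93 and 96 in UNx, or 85 ± 3.61 against 92 ± 4.58 (SD, n = 3 each). Sham 3 exceeded UNx 1, so the groups overlapped. Klf6 carried most of this difference, since without its regions the means were 81.3 ± 2.08 and 84 ± 2.65. Without Sham 2, the list with the lowest peak strength, and UNx 3, that with the highest, the difference over the 9 loci was 3 regions in place of 7.

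**Figure D3:**
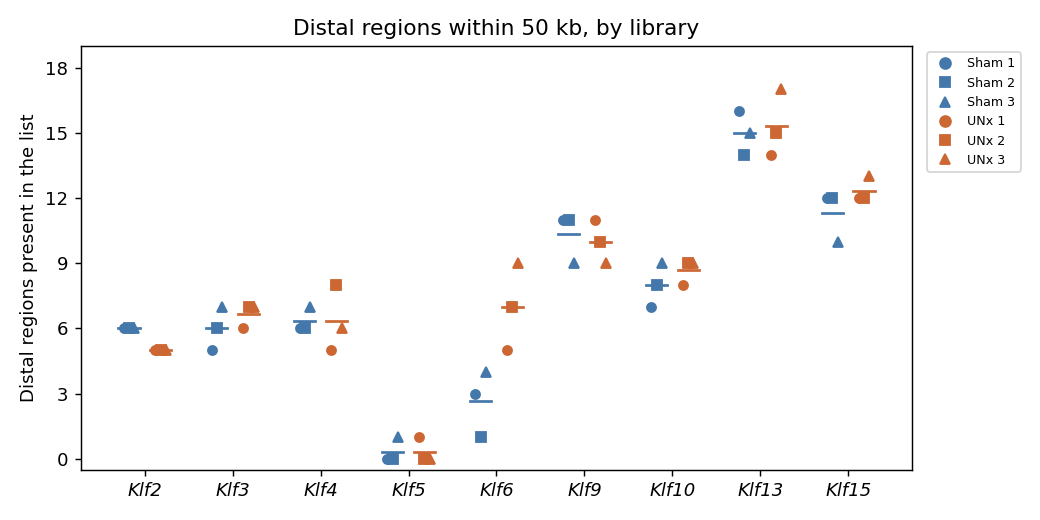
Number of distal regions present (vertical axis) at each gene in each of the 3 Sham and 3 UNx libraries, 1 point per library. At Klf6 the UNx libraries hold 5, 7 and 9 regions and the Sham libraries 3, 1 and 4, while at Klf2 every Sham library holds 6 and every UNx library 5 among the ranked peaks. With all deposited peaks the whole Klf2 locus held 9, 7 and 9 regions in Sham and 8 in each UNx library, which overlap.

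Klf13 had the largest number of regions, 22, of which 18 were distal. Several regions in its intron had higher ranks in UNx while the promoter had lower ones. The region 20.9 kb into the gene (chr7:63917439-63918434) had ranks of 52.6, 55.2 and 58.9 in Sham and of 81.6, 76.5 and 74.3 in UNx. The lowest UNx library thus stood above the highest Sham library by more than the range within either group. The mean went from 55.6 ± 3.20 to 77.5 ± 3.75 (SD, n = 3 each), a difference of 21.9 percentile points (SE 5.63, limma adjusted p = 0.0658), the smallest p of the 90 tested. The limma adjusted p ranged from 0.0477, past the threshold, on a normal-score scale to 0.438 with ranking by fold enrichment, and it was above the threshold under every alternative but the first. The authors' fold enrichment at its summit was 4.22, 3.89 and 4.73 in Sham and 5.98, 5.64 and 5.52 in UNx.

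A second intron region, 27.3 kb into Klf13, had ranks of 51.3, 53.5 and 53.0 in Sham and of 68.3, 70.2 and 74.5 in UNx (difference 18.4, limma adjusted p = 0.127). Another, 1.09 kb from the first start, had 51.2, 57.2 and 54.4 against 80.5, 64.2 and 69.1 (difference 16.98, limma adjusted p = 0.169). A region at another annotated Klf13 start, 13.1 kb into the gene, had 80.2, 83.6 and 83.6 against 88.2, 88.3 and 91.3 (difference 6.83, limma adjusted p = 0.182), a difference that turned to −22.4 when regions were merged only at 50% reciprocal overlap. These 3 were singled out after their values were seen. In each of them every UNx library stood above every Sham library.

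Of 2 further Klf13 regions chosen after their values were seen, 1 lies 24.5 kb into the gene and had 53.6, 57.7 and 47.5 against 59.0, 76.9 and 59.7. The UNx libraries were again all higher, but UNx 1 and UNx 3 only narrowly exceeded Sham 2 (difference 12.3, limma adjusted p = 0.370), and the difference was 6.40 without UNx 2 and 4.81 when ranked by fold enrichment. The other, 83.4 kb from the start and beyond the end of the gene, had 40.5, 51.2 and 48.6 against 30.5, 31.7 and 25.6, wholly lower in UNx (difference −17.5, limma adjusted p = 0.331). The strongest distal region, 80.2 kb from the start, had 76.6, 85.6 and 83.3 against 82.6, 89.0 and 83.1 (limma adjusted p = 0.664). Over the 18 distal Klf13 regions, 15 were tested, with 10 higher and 5 lower in UNx and 3 at an unadjusted p under 0.05.

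**Figure D4:**
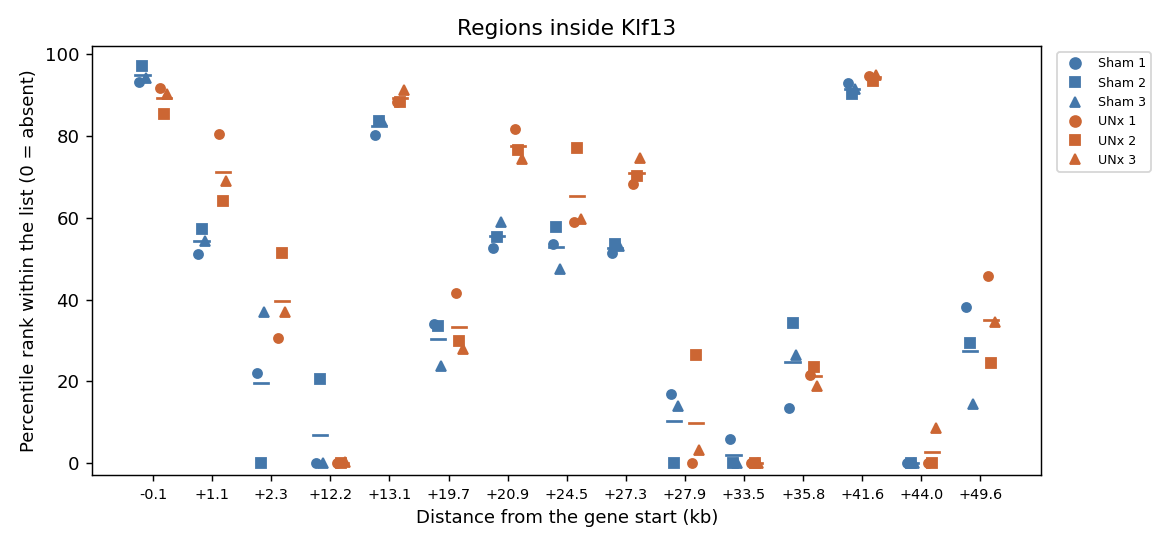
Percentile rank (vertical axis, 0 for absent) of Klf13 regions in each library, in order of their distance from the gene start in kb (spacing not to scale), with 1 point per library and a bar at each group's mean. At 20.9 and 27.3 kb the 3 UNx points stand above the 3 Sham points, and at the promoter they stand below.

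Klf6 showed its difference in presence. Of its 10 distal regions, 3, 1 and 4 were present in Sham 1, 2 and 3 and 5, 7 and 9 in UNx 1, 2 and 3, so no Sham library reached the lowest UNx count. With every deposited peak counted in place of the 77355 strongest, all Klf6 regions numbered 4, 2 and 5 in Sham and 8, 13 and 12 in UNx. Sham 2, with the fewest, also had the fewest peaks of the 6 lists, and UNx 3 had the strongest peaks. Whether list strength has a part in the Klf6 counts was not tested beyond the common list length. The promoter, by contrast, had nearly equal means.

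The strongest distal Klf6 region, at −19.9 kb from the start in intergenic sequence (chr13:5841401-5841770), was present in all 6 lists. It had ranks of 16.5, 36.9 and 8.06 in Sham and of 48.3, 37.5 and 63.2 in UNx. UNx 2 exceeded Sham 2 by under 1 percentile point, and the other UNx libraries stood further above. The difference was 29.2 percentile points (20.5 ± 14.8 against 49.7 ± 12.9, SE 11.0, limma adjusted p = 0.168). The fold enrichments deposited for it were 5.15, 5.56 and 4.94 in Sham and 7.70, 6.89 and 10.6 in UNx.

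Across the 113 regions, 2 were present in all UNx lists and in no Sham list, both at Klf6, and 0 showed the converse. The count in 1 operation only was 7 without UNx 1, and 4 without Sham 3 or without UNx 2. Over all regions 1.98% were confined to the 3 lists of 1 operation. The first, at −30.3 kb from the start, had ranks of 10.7, 0.869 and 12.8 in UNx (limma adjusted p = 0.557). The second, in the intron 2.25 kb from the start, had 20.4, 4.79 and 14.7 (limma adjusted p = 0.351). Both were weak peaks, with 0.869 and 4.79 close to the end of the ranked list, and no Sham list held a deposited peak at either. Both reached the test through the UNx lists alone, so the direction of their difference was fixed by that filter.

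A pair of further Klf6 intron regions, also chosen after their values were seen, lies in the same stretch. The one 1.02 kb from the start was absent in all Sham lists and in UNx 1 and had ranks of 41.9 in UNx 2 and 37.0 in UNx 3, too few lists for the test. The one 1.59 kb from the start had 17.1 in Sham 3, 33.3 in UNx 2 and 28.0 in UNx 3 and was absent elsewhere (limma adjusted p = 0.460). The 2 libraries that held both, UNx 2 and UNx 3, are those with the highest median −log10 q, 20.3 and 26.5.

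**Figure D5:**
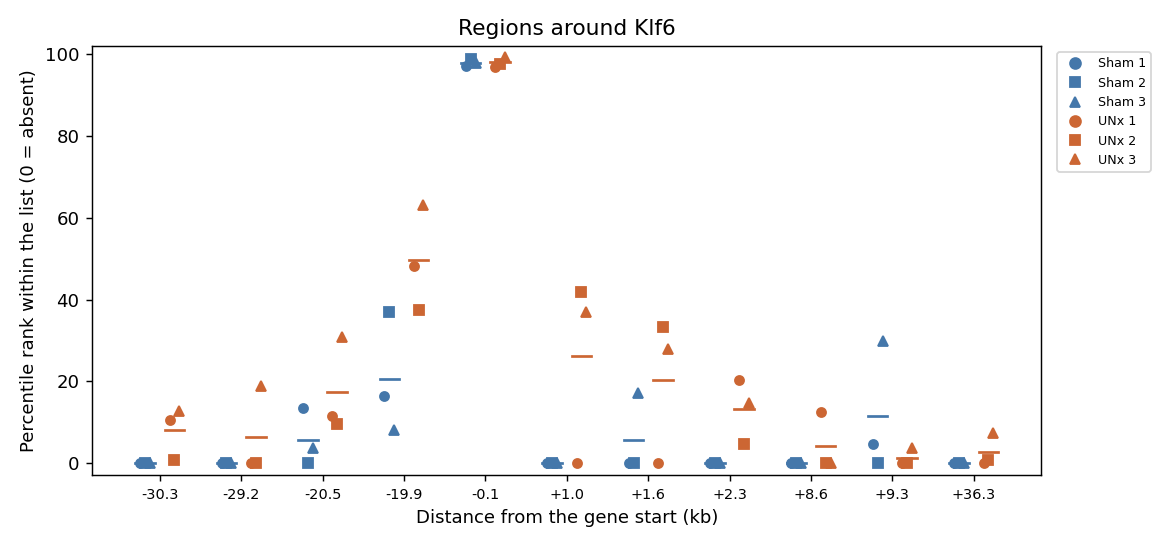
Percentile rank (vertical axis, 0 for absent) of Klf6 regions in each library, in order of their distance from the gene start in kb (spacing not to scale), with 1 point per library and a bar at each group's mean. The promoter lies near 98 in all 6 libraries, whereas the Sham points of most distal regions lie at 0.

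Klf9 had 14 distal regions and 3 more near the start of the long non-coding RNA gene 2410080I02Rik, which lies upstream. A sum of ranks over the 7 upstream regions, those 3 included, was not among the planned results. It was 288, 207 and 271 in Sham and 388, 355 and 347 in UNx, whereas the promoter had lower UNx ranks. The largest difference among the 7 was at −7.05 kb from the Klf9 start, near the non-coding gene's start, with ranks of 34.8, 55.8 and 40.4 in Sham and of 74.3, 69.2 and 57.3 in UNx (difference 23.3, limma adjusted p = 0.132), but the difference was 6.18 when ranked by fold enrichment. It was singled out after its values were seen, and its groups were narrowly apart. Among distal regions proper the smallest p was that of the neighbour at −7.95 kb, with 41.8, 37.5 and 53.1 against 59.7, 52.8 and 69.9 (difference 16.6, limma adjusted p = 0.273), and 3.87 when ranked by fold enrichment. There Sham 3 and UNx 2 were level. The strongest distal Klf9 region, the nearest to the promoter on that side, had 48.8, 58.0 and 47.6 against 71.6, 54.7 and 53.4 (difference 8.41, or 2.56 without UNx 1, limma adjusted p = 0.587).

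Klf15, the glucocorticoid-responsive metabolic factor, lies among strong open regions of its neighbours. Its strongest distal region, at −39.9 kb from the start in an intron of Cfap100, had ranks of 98.2, 98.3 and 96.8 in Sham and of 98.0, 98.3 and 96.1 in UNx, level between operations (difference −0.324, limma adjusted p = 0.927). The region 46.7 kb from the start, in an intron of Aldh1l1 (a folate enzyme gene), had 62.5, 63.7 and 66.4 against 76.1, 73.9 and 78.0 (64.2 ± 2.02 against 76.0 ± 2.02, difference 11.8, limma adjusted p = 0.219). Its groups were well apart, by more than the range within either. The region at −11.6 kb, singled out after its values were seen, had 96.2, 94.0 and 94.6 against 97.8, 98.7 and 97.7 (difference 3.11, limma adjusted p = 0.248), and −1.33 when ranked by fold enrichment. Over the 12 tested distal Klf15 regions, 8 were higher and 4 lower in UNx.

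At Klf10 a pair of intergenic regions that lie side by side differed in opposite directions. The one 31.8 kb from the start, singled out after its values were seen, had ranks of 56.5, 56.1 and 49.0 in Sham and of 67.1, 67.1 and 65.3 in UNx (difference 12.7, limma adjusted p = 0.298). The one 31.3 kb from the start had 17.3, 28.2 and 45.9 in Sham, was absent from the ranked peaks in UNx 1 and UNx 3, and had 5.50 in UNx 2 (difference −28.7, limma adjusted p = 0.145). Neither pair of groups overlapped in rank. At the second region the deposited fold enrichments did overlap, with 5.34, 4.36 and 8.32 in Sham, 3.36 in UNx 1 and 4.67 in UNx 2, while UNx 3 held no peak. Repeats masked in the genome sequence cover 44.2% of the second and 7.37% of the first. The strongest distal Klf10 region, 22.5 kb from the start, had 85.3, 79.3 and 86.1 against 83.0, 81.5 and 90.8 (limma adjusted p = 0.849).

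Klf3, the CtBP-binding repressor, had distal regions in both directions. The region 63.5 kb from its start had ranks of 40.9, 34.5 and 42.7 in Sham and of 7.93, 20.3 and 0.270 in UNx, apart in rank (difference −29.9, limma adjusted p = 0.150). Its deposited fold enrichments were 5.04, 3.95 and 5.13 in Sham and 3.34, 3.89 and 2.82 in UNx, which nearly touch. The region 29.9 kb from the start, just past the gene, had 67.4, 62.8 and 59.6 against 39.1, 55.2 and 45.1 (difference −16.8, limma adjusted p = 0.232). Its fold enrichments overlapped, with 11.2, 8.42 and 9.71 in Sham and 6.85, 8.79 and 10.2 in UNx. The region at 49.6 kb had 59.0, 57.3 and 63.6 against 73.2, 69.3 and 77.8 (difference 13.5, limma adjusted p = 0.210). The last pair was singled out after the values were seen. The strongest, at 58.6 kb, had 90.4, 91.3 and 79.6 against 86.5, 91.5 and 93.2 (limma adjusted p = 0.580).

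At Klf4 and Klf2, both also known from endothelium, 5 of 6 and 4 of 6 tested distal regions had lower UNx ranks, where 49.9% of all tested regions had higher ones. The Klf2 count is thus near an even split. The Klf4 promoter had a lower UNx mean (difference −7.60) and the Klf2 promoter a higher one (difference 2.26). At Klf4 the region 51.8 kb from the start had ranks of 26.6, 49.0 and 18.8 in Sham and of 4.95, 10.2 and 4.26 in UNx (difference −25.0, limma adjusted p = 0.222), and the difference was −16.3 without Sham 2. The strongest, at 17.6 kb, had 94.3, 95.6 and 90.6 against 94.6, 87.4 and 78.8, with UNx 1 at the Sham level (difference −6.54, limma adjusted p = 0.253), and without UNx 3 the difference was −2.47. At Klf2 the region at −23.3 kb had 35.5, 11.3 and 26.7 against 18.4, 0 and 0 (difference −18.4, limma adjusted p = 0.341). All 6 lists held a deposited peak there, and the 0 values mark peaks too weak for the ranked list. Its deposited fold enrichments were 7.62, 4.01 and 6.79 in Sham and 5.43, 4.27 and 3.01 in UNx, which overlap. The strongest at Klf2, 34.4 kb from the start in an intron of Eps15l1, had 90.3, 87.6 and 84.8 against 92.1, 86.4 and 88.1 (difference 1.27, limma adjusted p = 0.833). The endothelial marker sum was lower in every UNx library than in any Sham library (given above). It was made up of low ranks, and its 0 values depend on where each list was cut. The part of endothelial cells in the Klf4 and Klf2 values was not tested.

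The other genes of the family did not pass the test either. Of 17 further KLF and SP genes 11 had a promoter region and 10 were tested, with 7 higher and 3 lower in UNx, 0 past the threshold and 1 at an unadjusted p under 0.05. That gene, Sp3, a GC-box factor present in most tissues, had ranks of 89.6, 92.0 and 86.3 in Sham and of 94.1, 93.1 and 94.0 in UNx (limma adjusted p = 0.248). The median difference of the list was 1.11 percentile points, beside −0.190 over 13203 tested protein-coding promoters. Of 15 genes for partners and regulators of KLFs, all tested, 4 were higher and 11 lower in UNx and 0 passed, with a median of −3.37. The glucocorticoid receptor gene Nr3c1 had the only unadjusted p under 0.05 among them, with 88.3, 94.4 and 91.7 against 79.6, 87.2 and 88.6 (limma adjusted p = 0.219). Its groups overlapped by a fraction of a point.

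By the sum of absolute rank differences over the 6 libraries, the protein-coding promoters most like that of Klf13 were those of Mast2 (6.08 percentile points), Uso1 (6.61) and Ehmt1 (6.79). Those most like Klf4 were Sucnr1 (7.95) and the shared promoter of Lrsam1 and Rpl12 (8.27). Those most like Klf9 were Srebf1 (12.3), Dagla (12.5) and Sox15 (14.9). Klf15 had no close match, the nearest being Arl8b at 19.1, while Klf3 had Trim59 at 1.19 and Klf5 had Snx11 at 1.29.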

How the data were processed

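The deposited files are 6 peak lists, 1 per library, from 3 Sham and 3 UNx libraries. The submitters' processing notes name the mm10 build, cutadapt 3.4, Bowtie, SAMtools, Picard and MACS2 2.2.7.1; their settings and any filter are not given in the sources used here. Each summit carries the authors' fold enrichment, a ratio with no unit, and the −log10 q deposited by the authors. No counts are in these lists, so depth is unknown and no interval is given.

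Each list was reduced to distinct intervals with their strongest summit, cut to the 77355 strongest by −log10 q and ranked in percent, and intervals overlapping by at least 1 bp were merged. Stronger libraries give more and wider peaks, which ranking reduces but does not remove. The 74781 regions in at least 3 lists were fitted with limma 3.58.1 (R 4.3.3; trend and robust variance, operation as the only term, Benjamini-Hochberg adjustment, threshold 0.05), after the script was tested on simulated data.

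For each gene the text names its promoter region of highest mean rank, the distal region with the smallest p, the strongest distal region, every region past the threshold and any region in 1 operation only. Any other region the text names was chosen after its values were seen. Members and lists were chosen with earlier results of these data known. Motifs were searched on both strands within 100 bp of the strongest summit. Alternatives changed the ranking, cut, merging, filter, scale, GC correction, gene window and libraries used.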

Additional observations from a re-analysis of the deposited data

How the results depend on the processing

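No KLF region passed the threshold under any alternative except the normal-score scale, where 1 did, the Klf13 region 20.9 kb into the gene. Over all tested regions the count of 589 moved to 22 with all deposited peaks, 2 with the 20000 strongest, 3 when ranked by fold enrichment, 180 with −log10 q of at least 5, 143 with 50% reciprocal overlap, 1583 with normal scores, 2 with no filter on lists and 2 with GC-corrected ranks, and ranged from 30 to 379 when 1 library was left out. The UNx minus Sham difference in KLF regions per list, 7, was 15.7 with all deposited peaks, 1.67 with the 20000 strongest, 0.333 by fold enrichment and 13.3 with −log10 q of at least 5, and ranged from 5 to 9.5 without 1 library. The 2 regions in 1 operation only became 1 with the 20000 strongest peaks and 1 within 10 kb of the gene, and ranged from 2 to 7 without 1 library. The cause of these shifts was not tested.

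Ranking by fold enrichment reversed the promoter differences of Klf2 (−2.32), Klf5 (−0.626), Klf6 (−6.27) and Klf10 (−4.69), those of the strongest distal regions of Klf2 (−2.15), Klf10 (−1.18) and Klf13 (−0.823), and that of the Klf15 region at −11.6 kb (−1.33). Without reversal it moved the Klf13 region at 1.09 kb to 9.58, the Klf3 region at 49.6 kb to 7.84, the Klf10 region at 31.8 kb to 21.3, the first Klf10 start to −12.0, the Klf4 region at 17.6 kb to −2.75 and the Klf6 region at −30.3 kb to 27.1. The Klf13 region 13.1 kb into the gene was reversed to −22.4 with 50% reciprocal overlap. Klf6 was also reversed to −0.971 by GC correction, to −0.311 without Sham 1, −0.0108 without Sham 3 and −0.646 without UNx 3, and Klf10 to −0.00560 without Sham 1; with 1 library left out the highest values were 0.592 for Klf6 and 2.73 for Klf10. The same omissions moved the strongest distal regions from −0.352 to 2.65 at Klf2, from −0.407 to 5.44 at Klf3, from −1.31 to 3.33 at Klf10 and from −0.792 to 0.337 at Klf15, and the Klf15 region 1.10 kb into the gene from −0.948 to 10.4. Of 39 named regions with a test, 27 were never reversed, and 23 of 638 values were. Deviations of same-numbered libraries had correlations of 0.0082, −0.1002 and −0.0496, and a shared number is therefore not treated as a pair. With the replicate block 56 regions passed overall and 0 at KLF loci, and with block and GC correction 0 passed and the Klf6 promoter stood at −0.971. The percentile scale limits what can be seen: promoters near 100 cannot rise further, and a rank does not show absolute accessibility.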
